A study of Apis mellifera with 48 samples.

Results

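The genes described here had a median level at least 4 times higher in the mushroom bodies of drones than in those of workers. Gene expression was measured by sequencing of polyadenylated RNA from the mushroom bodies of 48 single honey bees (Apis mellifera), with 1 library per bee. The groups were 12 drones taken at 3 pm, active and about to fly, 12 drones taken at 9 am, inactive, 12 workers taken at 3 pm, active and preparing to forage, and 12 workers taken at 9 am, inactive. All bees came from 3 colonies with unrelated, naturally mated queens, and no bee carried a transgene or was given an agent, as far as the labels say. Activity and clock time divide these bees in the same way and cannot be told apart. Levels are given as CPM, the count scaled to a common total of gene reads. Members were chosen by these levels: a gene was taken when its median over the 24 drones was at least 2 CPM and at least 4 times its median over the 24 workers. This held for 100 of 15314 genes (0.653%). The mirrored rule, with workers 4 times higher, held for 42 genes.

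Drones are male bees that develop from unfertilised eggs and are haploid, and workers are diploid females that seldom reproduce. The sex-determination pathway of the honey bee ends in sex-specific splicing of transcription factors, which sets the course of male or female development in tissues including the brain. The mushroom bodies are paired centres of the insect brain, built mainly of Kenyon cells, that take part in learning and in combining sensory inputs. The drone is known for its large compound eyes and its mating flights, the worker for foraging.

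None of the gene identifiers in the files (GB followed by a number) was found in the RefSeq gene table of the assembly Amel_HAv3.1. The members are therefore given by identifier only, without name, function, position or sequence. For the same reason the tissue could not be checked against Kenyon cell markers, and markers of eye, gland, fat body or muscle could not be read. CPM is not per gene length, so a level is compared between bees and not between genes.

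The libraries held 6.69 to 27.1 M reads in genes, with a median of 13.9 M. Colonies were spread unevenly, with 7, 3 and 14 drones and 10, 10 and 4 workers from colonies 1, 2 and 3. The pools named in the labels were even, as pools 1 to 6 each held 4 drones and 3 or 4 workers, and pool 7 held only 3 pm worker 4. Several bees stood apart in the members. The summed CPM of all 100 members ran from 2260 to 13524 with a median of 5404 in drones, and from 271 to 3766 with a median of 592 in workers. Worker 5 of the 9 am group held the 3766 CPM, the next worker held 1461, and these 2 bees belonged to colony 1. This one worker was the highest worker in 30 of the 100 members, against 2.43% of the other tested genes. Drone 3 of the 9 am group had the highest sum of all bees. Drone 10 of the 9 am group was the lowest drone in 24 members, against 6.79% of the other tested genes.

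The levels that chose the members are described without a test, since drones and workers differ in them by the rule. The drone median was 2 to 5 CPM in 35 members, 5 to 10 CPM in 18, 10 to 50 CPM in 31 and at least 50 CPM in 16. In workers, 17 members had a median at or under 0.216 CPM, which is 3 reads in a library of median size. With worker medians held at that floor, the median ratio of drones to workers was 8.26, and 53 members reached 8, 30 reached 16 and 9 reached 50. In whole tissue a higher level can mean more cells of a type or more RNA per cell, and these cannot be told apart here.

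**Figure D1:**
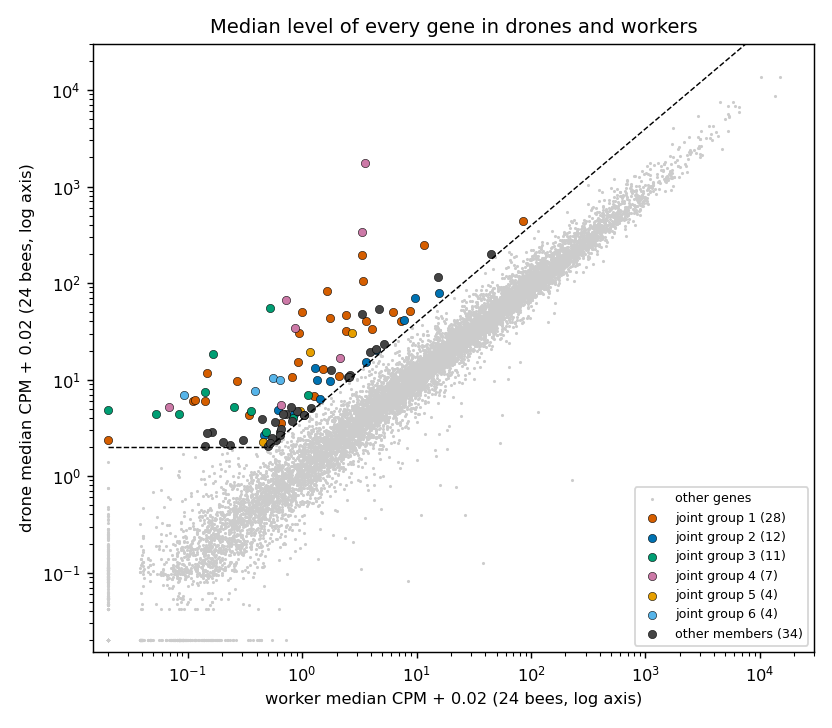
Median CPM of each gene in 24 workers (x axis) and 24 drones (y axis), with 0.02 added and both axes logarithmic. Dashed lines mark the rule, grey points are other genes, and members are coloured by the joint groups described in the text. GB50423 stands highest, at 1735 CPM in drones against 3.55 CPM in workers.

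GB50423 had the highest drone median CPM and, with worker medians held at the floor, the largest ratio of the 100 members. Its level was 2.81 CPM in the lowest drone, 1735 at the median and 4283 in the highest drone, against 0.855, 3.55 and 1040 CPM in workers, a ratio of 489. Single bees crossed between the sexes. Drone 2 of the 3 pm group and drones 1 and 3 of the 9 am group had 2.81, 8.69 and 21.2 CPM, and lay below the third highest worker. Workers 11 and 12 of the 3 pm group, both of colony 3, had 1040 and 699 CPM and lay within the range of the drones. The other 22 workers had at most 37.9 CPM. GB47546 had 0.588, 339 and 2592 CPM in the lowest, median and highest drone, against 0.203, 3.35 and 157 CPM in workers. GB51223 had 0.359, 66.4 and 378 CPM in drones, against 0, 0.701 and 73.7 CPM in workers. In GB47546 as in GB51223, 3 pm worker 10 was the highest worker.

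GB53119 had the second ratio with worker medians held at the floor, 109. Its level was 1.11, 54.8 and 2162 CPM in the lowest, median and highest drone, against 0, 0.504 and 7.04 CPM in workers. GB46227 had 0.443, 18.4 and 218 CPM in drones, against 0, 0.147 and 1.11 CPM in workers, so its worker median was under the floor and its ratio at least 85.3. In GB46227 all but 1 drone lay above every worker. GB46427 had 18.4, 198 and 616 CPM in drones, against 0.237, 3.32 and 339 CPM in workers. GB51068 had 26.2, 246 and 991 CPM in drones, against 2.75, 11.7 and 419 CPM in workers. In GB46427 and GB51068 the highest worker was worker 5 of the 9 am group, and only 4 and 7 drones lay above it. GB46302 had 16.9, 105 and 362 CPM in drones, against 0.541, 3.38 and 202 CPM in workers. GB43718 had 79.0, 443 and 1311 CPM in drones, against 58.2, 85.5 and 1174 CPM in workers, and GB50883 had 47.2, 199 and 1202 CPM in drones, against 21.7, 44.9 and 274 CPM in workers. In GB43718 1 drone lay above every worker, and in GB50883 4 did.

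In 5 members every drone lay above every worker, which 16 of all 15314 genes did (0.104%). GB47022 had 44.5, 115 and 214 CPM in the lowest, median and highest drone, against 9.89, 15.4 and 24.9 CPM in workers. GB50526 had 22.0, 47.9 and 175 CPM in drones, against 0.817, 3.29 and 13.6 CPM in workers. GB47806 had 9.51, 20.7 and 49.9 CPM in drones, against 1.72, 4.40 and 6.48 CPM in workers. GB47943 had 5.91, 11.2 and 31.7 CPM in drones, against 1.29, 2.61 and 5.22 CPM in workers, and its lowest drone was close to its highest worker. GB50735 had 2.42, 10.4 and 26.2 CPM in drones, against 0, 0.540 and 2.11 CPM in workers. At the other end, in 46 members at least 1 worker lay above the drone median, and in 13 members at least 2 did.

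At the limit of the fold, GB45318, GB53613 and GB49441 were the members just inside, with ratios of 4.10, 4.16 and 4.16, and GB45134, GB40139 and GB44224 were just outside, with 3.99, 3.98 and 3.95. At the limit of the level, GB46365, GB48591 and GB48903 had drone medians of 2.03, 2.03 and 2.08 CPM, and GB42427, GB54804 and GB49323, just outside, had 1.97, 1.84 and 1.73 CPM. In GB46365 single drones lay far above this median, as 3 pm drone 8 had 426 CPM, 9 am drone 7 had 188 CPM and the next drone 34.2 CPM. A further 319 genes were at least 4 times higher in drones below the 2 CPM level.

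The rule was also applied within parts of the bees. The 3 pm bees alone gave 132 genes, among them 89 of the 100 members (67.4% of that list), and the 9 am bees alone gave 96, among them 82 (85.4%). At both times 72 members met the rule. Within colonies 1, 2 and 3 alone, 76, 67 and 77 members met it, in lists of 119, 134 and 118 genes (63.9%, 50% and 65.3% of each list). In all 3 colonies 43 members met it. The drone median lay above the worker median for all 100 members in colony 3, 98 in colony 1 and 95 in colony 2, where it rests on 3 drones. The median ratio of the members, with the worker floor, was 6.97, 6.84 and 7.80 in colonies 1, 2 and 3. These subsets are parts of the bees that chose the members, so they describe evenness and are no independent repeat.

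Members varied more between bees than other genes. The median coefficient of variation among bees of a group was 63.8% over members and 22.4% over all tested genes in 3 pm drones, and 88.6% and 27.6% in 9 am drones. Among the 4263 other genes with a drone median inside the members' middle quartiles (4.34 to 32.3 CPM), it was 22.4% and 29.1%. In workers the members' medians were 93.9% at 3 pm and 101% at 9 am, at levels where few reads add counting error. In 92 members the highest drone had at least 10 times the level of the lowest, or a drone had no read. The widest was GB46365, followed by GB53115 and GB53986, with a median over the 4 groups of 255%, 200% and 170%. The narrowest were GB47022, GB47943 and GB47806, at 31.7%, 33% and 40.8%.

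The variation between bees was shared by sets of members. The log2(CPM + 0.5) values were centred within each of the 4 groups and the members were joined by average linkage on correlation, to a distance of 0.5. This gave 6 joint groups of at least 4 genes, which held 66 members. They were formed from these values, so nothing was tested on them. The first 3 principal components held 61.5% of the within-group variance of the members and 39.2% of that of all tested genes. The first component alone held 30.6% and 26.6%. The sets differ in size, 100 against 11167 genes, which also affects these shares.

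**Figure D2:**
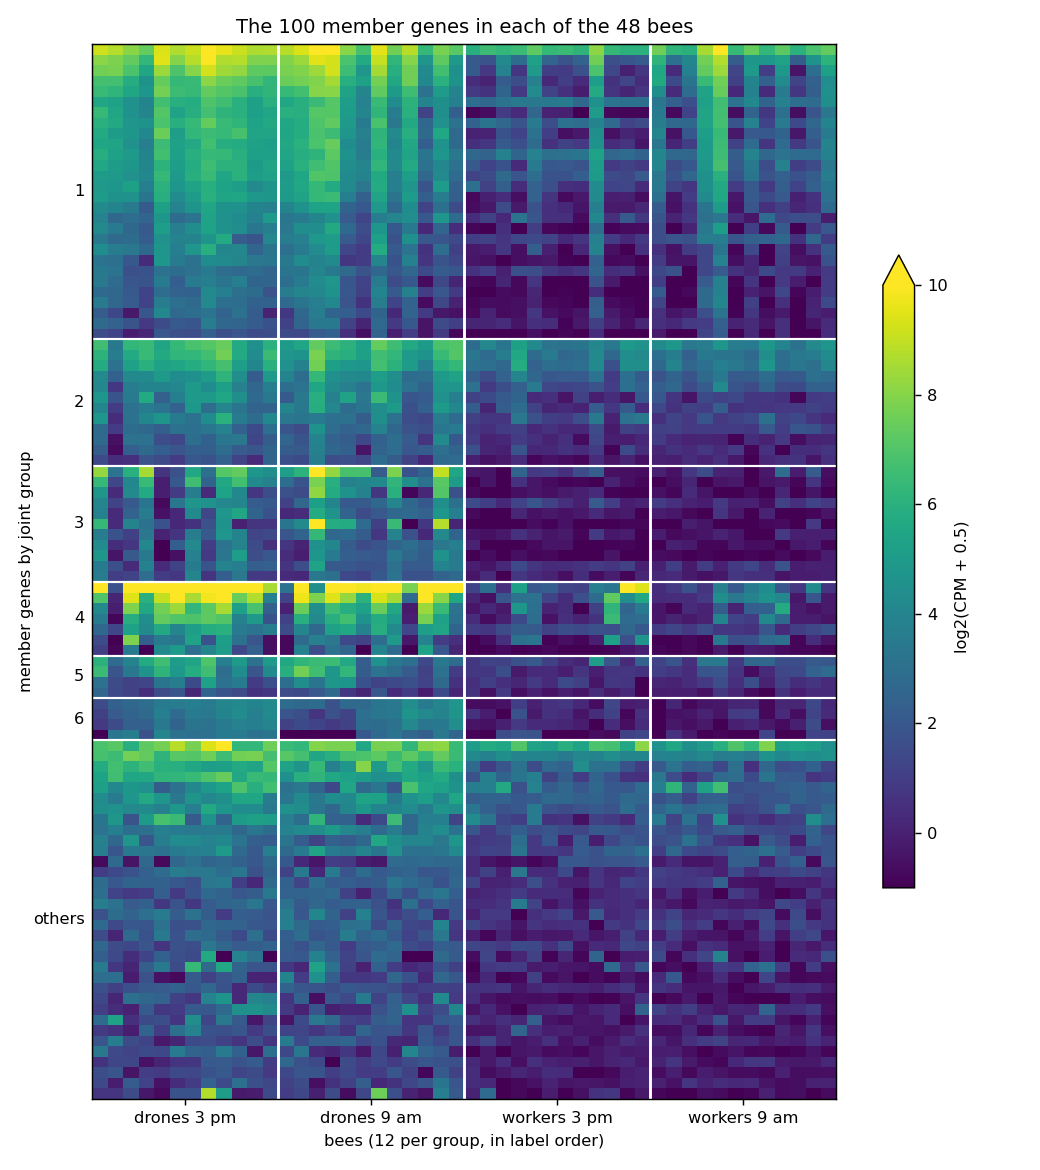
Colour gives log2(CPM + 0.5) of the 100 members (rows, ordered by joint group) in 48 bees (columns, 12 per group). The genes of joint group 1 are high or low together from bee to bee, also in workers, where worker 5 of the 9 am group stands out.

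Joint group 1 was the largest, with 28 genes, among them GB43718, GB51068, GB46427, GB46302, GB41297 and GB48697. Its summed level was 231, 1610 and 4705 CPM in the lowest, median and highest drone, against 98.6, 148 and 3332 CPM in workers. The lowest drone was drone 10 and the highest drone 4 of the 9 am group. Worker 5 of the 9 am group held the 3332 CPM, above all but 3 drones, and was the highest worker in 24 of the 28 genes. The next workers were 9 am worker 4 at 1256 CPM and 3 pm worker 9 at 1027 CPM, and in all 8 workers lay above the lowest drone. The genes stayed together when either sex was used alone, 27 of 28 in drones and 27 of 28 in workers. Of the tested genes outside the list, 26 followed the mean of this group as closely as its loosest member. Between the 14 drones of colony 3 and the 7 of colony 1 the median log2 difference of these genes was -0.74, and 1 of the 28 was positive. Between the workers of colonies 2 and 1 it was -0.69 over the 20 genes with enough reads, -2.02 without 3 pm worker 9 and -0.07 without 9 am worker 5.

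Joint group 4 held 7 genes, GB50423, GB47546, GB51223, GB51306, GB41806, GB47318 and GB46236. Its summed level was 6.01, 2546 and 6477 CPM in the lowest, median and highest drone, against 3.64, 14.7 and 1081 CPM in workers. Drone 10 of the 9 am group, lowest in joint group 1, was the highest here. The 2 lowest drones, 3 pm drone 2 and 9 am drone 1, were both of colony 1, and the 2 highest workers were both of colony 3. In these 2 workers the sums were mainly those of 1 gene. GB50423 alone held 1040 of the 1081 CPM in 3 pm worker 11 and most of the 795 CPM in 3 pm worker 12. Worker 11 was the highest worker in 2 of the 7 genes, and the next sum was 371 CPM, in 3 pm worker 10 of colony 2. Of these 371 CPM, GB47546 held 157, and GB50423 had at most 19.8 CPM in any worker of that colony. In drones alone all 7 genes joined, and in workers alone 6 did. Only 1 tested gene outside the list followed the group as closely as its loosest member.

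Joint group 3 held 11 genes, among them GB53115, GB53116, GB53119, GB46226 and GB46227. Its summed level was 7.97, 138 and 7492 CPM in the lowest, median and highest drone, against 1.77, 4.69 and 14.6 CPM in workers. All but 1 drone lay above every worker. Drone 3 of the 9 am group held the 7492 CPM and the next drone held 1338 CPM. GB53115 alone had 4552 CPM in that drone, against a median of 9.18 CPM in the other 9 am drones. All 11 genes joined in drones alone, and at most 2 in workers alone, where their levels were low.

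Joint group 2 held 12 genes, with 44.3, 291 and 902 CPM in the lowest, median and highest drone, against 25.2, 50.4 and 191 CPM in workers, and its ratios ran from 4.18 to 10.2. Joint group 5 held GB45658, GB46297, GB48875 and GB52919, with 6.19, 58.1 and 301 CPM in drones, against 2.99, 5.95 and 36.2 CPM in workers. Joint group 6 held GB50313 and the neighbours GB50735, GB50736 and GB50737, with 5.33, 34.7 and 77.8 CPM in drones, against 0, 2.35 and 8.92 CPM in workers.

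**Figure D3:**
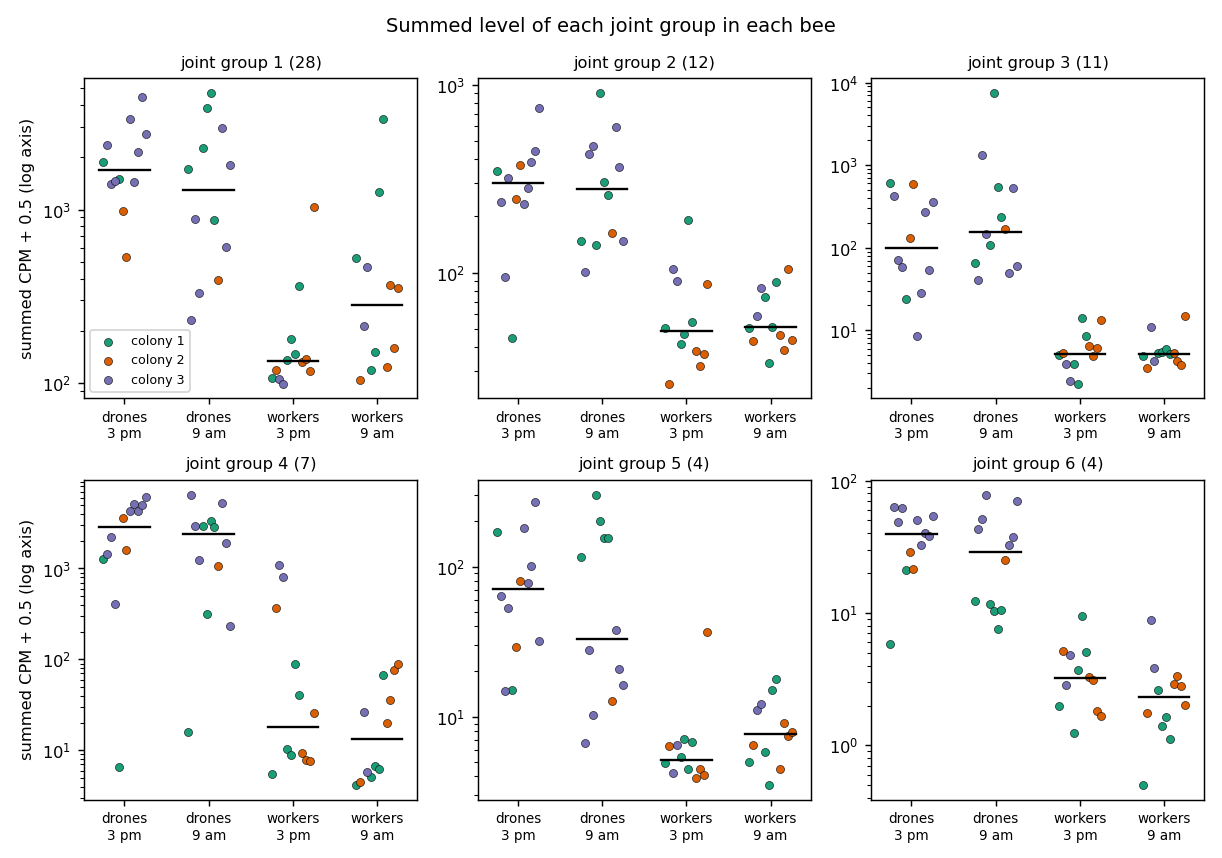
Summed CPM of each joint group, with 0.5 added, in each bee on a logarithmic axis, with 12 bees per group coloured by colony and a line at the median. The drone median lies above the worker median in each panel, and the highest workers reach 3332 CPM in joint group 1 and 1081 CPM in joint group 4. Of the 1081 CPM, 1040 are of GB50423. Above the lowest drone lie 8, 15, 5, 18, 10 and 2 workers in joint groups 1 to 6.

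Members lay beside each other in identifier number more often than their share of all genes. There were 9 runs of consecutive numbers, which held 19 members, with 8 pairs and 1 run of 3. Of the 200 identifiers directly before or after a member, 20 were members, against 0.653% of all identifiers. Within 10 numbers, 29 members had another member, against 10.5% of the identifiers outside the list. Whether numbers follow the order on the chromosome could not be read from the files. Whether a run holds copies of a gene, whose reads could be hard to tell apart, could not be checked without sequences. Reads without a unique alignment were counted apart from the genes, at 2.46% to 3.23% of all entries. The runs were GB43737 and GB43738, GB46226 and GB46227, GB46301 and GB46302, GB49477 and GB49478, GB50478 and GB50479, GB50735 to GB50737, GB51355 and GB51356, GB53115 and GB53116, and GB53624 and GB53625. In 6 of the 9 runs all members fell in 1 joint group, 3 of them in joint group 1 and 2 in joint group 3. Most of the genes next to the runs were not much higher in drones. Of the 18 identifiers flanking the runs, 8 had a drone median of at least 2 CPM, and 1 of these, GB49476, was at least 2 times higher in drones, at 127 against 39.3 CPM. The others lay below that level, some of them with a worker median of 0 CPM, and their ratios are not given.

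Differences between colonies were not part of the rule, although drones came mostly from colony 3, so a gene high in that colony was easier to select. Between the 14 drones of colony 3 and the 7 of colony 1, with time of day as a covariate, 8 members passed at an adjusted p below 0.05, 5 higher and 3 lower in colony 3. Of all 10561 genes tested 1.57% passed, 0.739% higher and 0.833% lower. At an unadjusted p below 0.05 there were 25 members, against 13.4% of all genes, and 46 had a positive difference, against 52.8%. The median log2 difference, colony 3 minus colony 1, was -0.16 over members and 0.01 over all genes. Without 9 am drone 3 the members' median was 0.23 and 59 were positive, so the sign rested on that bee. The clearest were the 3 genes of the run GB50735 to GB50737, and for each of them every colony 3 drone lay above every colony 1 drone, which held for 0.114% of the genes tested.

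GB50737 had 5.34, 10.4 and 20.5 CPM in the lowest, median and highest drone of colony 3, against 1.31, 1.75 and 2.42 CPM in colony 1. Its log2 difference was 2.71 ± 0.27 (SE, edgeR adjusted p = 4.52e-06). GB50736 had 6.78, 13.7 and 25.7 CPM in colony 3, against 1.06, 2.66 and 3.99 CPM in colony 1 (log2 difference 2.65 ± 0.30, edgeR adjusted p = 1.82e-05). GB50735 had 9.24, 13.9 and 26.2 CPM in colony 3, against 2.42, 6.12 and 6.95 CPM in colony 1 (log2 difference 1.61 ± 0.24, edgeR adjusted p = 0.000427). The 3 drones of colony 2 lay at 4.65 to 7.16 CPM for GB50737. In workers the medians of GB50737 were 0.504, 0.471 and 0.288 CPM in colonies 3, 2 and 1. All 3 genes passed in each of the 24 fits that left out a drone.

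GB50313, of the same joint group, had at least 4.57 CPM in every drone of colony 3 and no read in 6 of the 7 drones of colony 1, the other having 9.35 CPM. Its log2 difference was 2.86 ± 0.74 (edgeR adjusted p = 0.0473), and it passed in 5 of the 24 fits that left out a drone. Without the colony 1 drone of 9.35 CPM that colony had no read, so no bound on the fold is given. All 4 workers of colony 3 had 1.72 to 2.00 CPM, and 7 of the 10 workers of colony 2 had no read. The 10 workers of colony 1 had a median of 0.212 CPM and a highest of 3.19 CPM, and 3 of them had no read. In colony 1 the drone median was 0, so there drones were not higher than workers. GB51673 was also higher, with 1.22, 4.41 and 24.5 CPM in colony 3, against 0.448, 0.850 and 3.08 CPM in colony 1 (log2 difference 2.86 ± 0.73, edgeR adjusted p = 0.0458, 12 of 24 fits). Lower in colony 3 were GB48875, with 1.40, 8.59 and 99.8 CPM against 3.27, 78.5 and 204 CPM in colony 1 (log2 difference -3.19 ± 0.79, edgeR adjusted p = 0.0408, 9 of 24 fits), GB45318 and GB43737. GB45318 had 0.332, 1.92 and 3.61 CPM in colony 3, against 2.31, 4.71 and 12.3 CPM in colony 1 (log2 difference -1.72 ± 0.38, edgeR adjusted p = 0.0188). It did not pass without 3 pm drone 2 or with pool as a covariate (edgeR adjusted p = 0.119 and 0.0992). GB43737 had 2.28, 6.21 and 10.8 CPM in colony 3, against 6.47, 9.14 and 15.5 CPM in colony 1 (log2 difference -0.91 ± 0.22, edgeR adjusted p = 0.0302, 18 of 24 fits). In these 3 genes the colonies overlapped. The count of 8 was 4 without 3 pm drone 1 or 9 am drone 12. It was 5 without 3 pm drone 10 or 12 or without 9 am drone 2, 3, 4, 5, 6, 8, 9 or 10. Over all genes 166 of 10561 passed in the main fit, 70 of 10615 without 3 pm drone 1 and 131 of 10608 without 9 am drone 12. In the fits with 5 members, 106 to 173 of all genes passed.

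**Figure D4:**
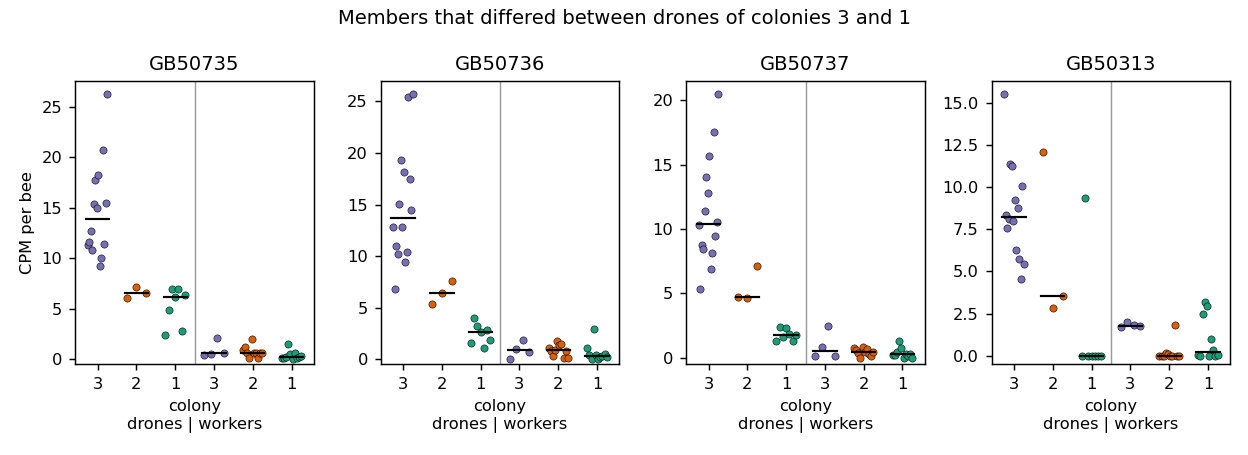
CPM per bee (linear axis) of 4 members of joint group 6, in drones (left of the grey line) and workers (right) of colonies 3, 2 and 1, with a line at the median. For GB50735, GB50736 and GB50737 all 14 drones of colony 3 lie above all 7 of colony 1, and for GB50313 6 of the 7 drones of colony 1 lie at 0.

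Between the 10 workers of colony 2 and the 10 of colony 1, 62 members had enough reads in workers to be tested, and 3 passed, 1 higher and 2 lower in colony 2, against 0.556% of 10603 genes tested (0.189% higher and 0.368% lower). At an unadjusted p below 0.05 there were 13 members, against 8.08%, and 21 had a positive difference, against 47.3%. Without 3 pm worker 9 the unadjusted count was 30 of 64 members. GB54870 had 0.218, 3.34 and 4.73 CPM in the lowest, median and highest worker of colony 2, against 0.0761, 0.273 and 0.799 CPM in colony 1 (log2 difference 3.00 ± 0.54, edgeR adjusted p = 0.00651). GB51356 had 2.66, 3.84 and 5.84 CPM in colony 2, against 2.82, 13.4 and 101 CPM in colony 1 (log2 difference -2.88 ± 0.49, edgeR adjusted p = 0.00454). GB50441 had 0.199, 1.21 and 1.75 CPM in colony 2, against 1.55, 8.61 and 23.3 CPM in colony 1 (log2 difference -2.94 ± 0.53, edgeR adjusted p = 0.00691). For GB51356 the groups overlapped at the low end, and for GB54870 as for GB50441 8 of the 10 workers of colony 2 lay beyond the range of colony 1. The 3 genes passed in all 24 fits that left out a worker, but GB54870 did not with pool as a covariate (edgeR adjusted p = 0.0602). Leaving out 3 pm worker 2, 3 or 4 gave 5 members. Over all genes 53, 62 and 83 passed in those fits, against 59 in the main fit. The drone excess of GB54870, GB51356 and GB50441 was not even across colonies. For GB54870 the drone and worker medians were 0.421 and 3.34 CPM in colony 2, with 3 drones. They were 5.95 and 3.23 CPM in colony 3, and 1.35 and 0.273 CPM in colony 1. In colony 1 they were 10.03 and 13.4 CPM for GB51356, and 9.16 and 8.61 CPM for GB50441. In colonies 2 and 3 the drone medians of GB51356 and GB50441 lay above the worker medians.

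Time of day, which here is also activity, was not part of the rule either. Members varied more between bees than other genes, and a wide spread makes a change harder to call. Whether their share of calls differed from that of all genes, and whether spread had a part in it, was not tested. In drones, 2 of 100 members passed between 3 pm and 9 am, 1 higher and 1 lower, against 3.95% of 11167 genes tested (2.64% higher and 1.31% lower). At an unadjusted p below 0.05 there were 9 members, against 15.5% of all genes, and 5 without 3 pm drone 5 or 9 am drone 2, 4 or 5. The median log2 change over members was 0.25, against -0.01 over all genes, and 64 members had a positive change, against 47.9% of all genes. Without colony 3 the median over members was -0.39 and 32 were positive, so the direction turned. Members of a joint group move together, so these counts are not of independent genes.

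GB50526 was higher in active drones, with 41.8, 78.1 and 175 CPM in the lowest, median and highest 3 pm drone, against 22.0, 38.3 and 72.9 CPM at 9 am. Its log2 change was 1.26 ± 0.36 (SE, edgeR adjusted p = 0.0321), and 7 of the 12 drones at 3 pm exceeded the highest one at 9 am. It did not pass without 3 pm drone 8, 9 or 12 or 9 am drone 7, 8 or 12 (edgeR adjusted p from 0.056 to 0.0826), nor without colony 3 (log2 change 0.53, edgeR adjusted p = 0.955). Without colony 3, 1 of all 11372 genes tested passed in drones. In workers its median was 3.54 CPM at 3 pm, against 3.11 CPM at 9 am. GB53115 was lower in active drones, with 0.522, 1.96 and 79.7 CPM at 3 pm, against 0, 13.7 and 4552 CPM at 9 am (log2 change -4.13 ± 1.04, edgeR adjusted p = 0.0128). This rested on single bees, as the change was -2.38 without 9 am drone 3 (edgeR adjusted p = 0.150) and -2.75 without 9 am drone 11 (edgeR adjusted p = 0.151), and the groups overlapped throughout. With pool as a covariate it was -0.97 (edgeR adjusted p = 0.815), with limma-voom it was -1.42 (adjusted p = 0.66), and DESeq2 gave no adjusted p. The count in drones was 1 without 3 pm drone 8, 9 or 12 or without 9 am drone 3, 7, 11 or 12, each left out singly.

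In workers, 2 of 100 members passed, 1 higher and 1 lower at 3 pm, against 2.31% of all genes (1.65% higher and 0.663% lower). At an unadjusted p below 0.05 there were 19 members, against 16.2% of all genes, and 42 had a positive change, against 48.7%. The unadjusted count was 11 without 3 pm worker 2, 12 without 3 pm worker 4 and 32 without 3 pm worker 9. A median of at least 1 CPM in workers was reached by 45 members, and the others had few reads to compare. GB42552 had 0.199, 1.67 and 2.28 CPM in the lowest, median and highest active worker, against 0, 0.564 and 1.5 CPM in inactive workers (log2 change 1.43 ± 0.33, edgeR adjusted p = 0.0121). It lay above all inactive workers in 7 of 12 active ones, and did not pass without colony 1, 2 or 3 (edgeR adjusted p = 0.269, 0.106 and 0.0678). Among all genes 12 of 11250, 64 of 11356 and 140 of 11372 passed in those fits. GB46301 had 0, 0 and 0.876 CPM in active workers, against 0, 0.445 and 13.6 CPM in inactive ones (log2 change -3.98 ± 0.83, edgeR adjusted p = 0.00702), a difference of few reads that did not pass without colony 1 (edgeR adjusted p = 0.485) or with limma-voom (adjusted p = 0.195). GB46301 had too few worker reads to be tested in workers alone, where 62 members were tested, and it entered this fit through its level in drones.

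GB46301 belongs to joint group 1, whose summed level in workers was 98.6, 133 and 1027 CPM at 3 pm, against 104, 281 and 3332 CPM at 9 am. Of its 28 genes, 1 passed as lower in active workers, and the median log2 change was -1.28. Without 3 pm worker 9, which held the 1027 CPM, 16 of the 28 passed as lower and the median was -2.48, and the count over all members was 17. These genes move together, so the 16 are not independent calls, and the count over all genes in that fit is not given here. Without 9 am worker 5, which held the 3332 CPM, 1 passed and the median was -0.73. The lower level was not seen without colony 1, where the median was 0.04, 15 of the 28 were positive and 0 passed with edgeR, 1 of them at an unadjusted p below 0.05. Without colony 2 the median was -3.10 and 12 passed. In the fit of workers alone between colonies, 20 of these 28 genes had enough reads to be tested, so the counts over 28 and over 100 in workers include genes that passed the low-count filter through their level in drones. In drones all 28 genes had a positive change, with a median of 0.64, and 0 passed with edgeR, 0 of them at an unadjusted p below 0.05. This direction turned without colony 3, where the median was -0.49 and 2 of the 28 were positive.

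The test of the difference between the drone and the worker response gave 0 of 100 members with edgeR, against 0.26% of all genes (0.188% higher and 0.0716% lower). The difference was positive in 63 members, against 51.6% of all genes, and in 47 without colony 3. At an unadjusted p below 0.05 there were 20 members, against 10% of all genes, and 15 of the 20 were in joint group 1. This count was 9 without 9 am worker 5, 13 without 3 pm worker 11 and 34 without 3 pm worker 9. DESeq2 gave 1 member and limma-voom 0. GB46301 was nearest, with a response 4.15 ± 1.00 more positive in drones (log2, edgeR adjusted p = 0.0527). This test also rests on worker reads, and only 62 of the 100 members had enough of them to be tested in workers alone. GB46301 was not among those, so the counts here include genes that passed the low-count filter through their level in drones. Without 3 pm worker 9 the count was 12, all of joint group 1 and all more positive in drones. The genes of that group move together, so the 12 are not independent calls. The count over all genes in that fit is not given here. The count of members was 1 without 3 pm drone 1 or 4, 9 am drone 4, 3 pm worker 5, or 9 am worker 2, 3, 6, 7 or 11.

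**Figure D5:**
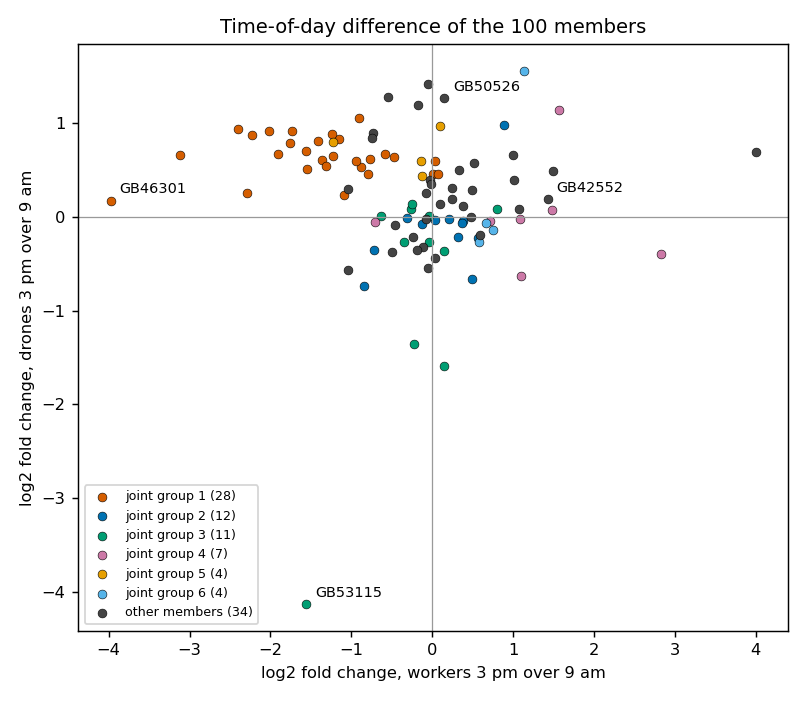
Log2 fold change of each member between 3 pm and 9 am in workers (x axis) and drones (y axis), from the edgeR fit and coloured by joint group. The 4 labelled members passed in drones (GB50526, GB53115) or in workers (GB46301, GB42552), and the genes of joint group 1 lie mostly to the left of 0 in workers, which was not so without colony 1, and above 0 in drones, which was not so without colony 3.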

How the data were processed

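The authors deposited raw read counts per gene, 1 table per bee, with 15314 gene rows and 5 summary rows for reads given to no gene, as the row names show. The submitters' processing notes list edgeR 3.4.2, HTSeq 0.5.4, SAMtools, TopHat2 2.0.10, Trimmomatic 0.30 and CASAVA 1.8.2 without saying which step used which. Libraries were directional per the labels' protocols, but the strand setting of the counting is not given in the sources used here. Only gene rows entered the library sizes, and reads outside genes were 24.5% to 31.8% of all entries.

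CPM is the count divided by the sum of gene rows and scaled to a common total. The members and joint groups were chosen with earlier results of these data known. Tests used edgeR 4.0.16 in R 4.3.3, with filterByExpr (11167 genes, all 100 members), TMM, and the quasi-likelihood test of 4 groups with colony as a covariate over 48 libraries. Colony differences were fitted within 1 sex with time as a covariate. P-values are two-sided and adjusted by Benjamini-Hochberg over all genes of a fit, with a threshold of 0.05. SE was computed as fold change over the square root of the F statistic. Alternatives were DESeq2 1.42.0, limma-voom (limma 3.58.1), size factors, no low-count filter, pool as a covariate, a replicate block, 1 sex alone, each colony left out and each library left out. Each bee is a separate animal, and bees of a colony share a hive. The script was tested on simulated counts. Identical tables were not found among the 48. Genes named in the text were those with the highest drone level, ratio or spread, complete separation, the lowest p of each test, the 1 run of 3, and those at the limits of the rule. The remaining genes named for colony, runs and joint groups were chosen after their values were seen.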

Additional observations from a re-analysis of the deposited data

How the results depend on the processing

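The rule gave 100 genes. The list held 95 to 134 genes with TMM or size factors, means, a level of 1 CPM, colony medians, or bees of 1 time or colony. It held 96 to 106 genes without any 1 library, an alternative added after seeing the data. These lists were not all of the same genes. Of the 100 members, 94 were kept with TMM, 93 with size factors, 87 with means and 83 with colony medians. The list held 65 genes at a drone level of 5 CPM, 434 at a ratio of 2 and 53 at a ratio of 8. The members passing for time in drones (2) were 1 with pool added, in drones alone, with limma-voom and with DESeq2, and 0 without colony 3. Of all genes, 441 of 11167 passed for drones in the main fit and 1 of 11372 without colony 3. For workers (2) the members passing were 0 without colony 1, 12 without colony 2, 1 without colony 3, in workers alone or with limma-voom, and 5 with DESeq2. All genes passing for workers were 258 of 11167 in the main fit and 371 of 11167 with DESeq2. They were 12 of 11250 without colony 1, 64 of 11356 without colony 2 and 140 of 11372 without colony 3. For the difference of the responses (0) the members passing were 1 without the low-count filter, without colony 1 or with DESeq2, and 6 without colony 2. Over all genes 29 of 11167 passed for it in the main fit and 22 of 11356 without colony 2. The colony difference in workers (3) gave 6 with DESeq2, where 162 of 10603 genes passed, against 59 with edgeR. With each library left out, the members passing ran from 1 to 2 for drones, 2 to 17 for workers and 0 to 12 for the difference. They ran from 4 to 8 for drone colonies and 3 to 5 for worker colonies. All genes passing ran from 70 to 211 for drone colonies and from 26 to 83 for worker colonies, and are not given here for time. Members of a joint group move together, so the counts are not of independent genes. The cause of these ranges was not tested. No called gene changed sign under any alternative run. Replicate numbers were not used as pairs in the main fit. Of 72 same-numbered pairs, 26 had a correlation over 0.1 (range -0.37 to 0.58). No figure for differently numbered pairs stands beside this, so it cannot settle whether the numbers pair the bees. With the replicate block 0 members passed for drones, 3 for workers and 0 for the difference. Depth limits the worker values, as 17 members had a worker median of at most 3 reads in a median library.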
